A study of Mus musculus with 6 samples.

Results

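The genes described here carry amino acids, monocarboxylates and related small molecules across membranes, and were read in mouse CD4+CD25+ T cells sorted by surface ILT3. The rule for choosing them used names: they are all rows whose symbol begins with Slc1a, Slc3a, Slc6a, Slc7a, Slc16a, Slc36a, Slc38a or Slc43a. That gave 78 of 38924 rows. By family these were 7 Slc1a, 2 Slc3a, 21 Slc6a, 16 Slc7a, 14 Slc16a, 4 Slc36a, 11 Slc38a and 3 Slc43a rows. One of them, Slc7a6os, is a neighbour of Slc7a6 on the other strand and does not encode a transporter, and Slc6a16 is split over 2 rows.

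The samples were 3 ILT3+ and 3 ILT3- samples of CD4+CD25+ T cells, the fraction of helper T cells in which regulatory T cells are abundant. The genotype of all mice was WT, none was treated, and males and females of 10 to 16 weeks were used. Cells of spleen and mesenteric lymph nodes were enriched magnetically, and a flow sorter then separated those with and without ILT3, an inhibitory receptor. The mice are called syngeneic without a strain, and whether each sample stands for another animal is not stated. The p-values therefore reflect only how far these 6 libraries scatter, and some of that scatter may be technical. Where 3 values are given for a group, they are those of samples 1, 2 and 3 in that order. In bulk RNA of this kind, fewer cells of a type and less RNA per cell cannot be told apart.

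Depth was 10768217 to 11960289 total gene reads in ILT3+ libraries and 9334370 to 13648274 in ILT3- libraries, and the 78 rows took 0.156% to 0.236% of reads in ILT3+ libraries and 0.148% to 0.253% in ILT3- libraries. Lilrb4, the gene of the sorted protein, was at 332 ± 65.8 CPM in the ILT3+ libraries, against 4.46 ± 1.29 CPM in the ILT3- libraries (SD, n = 3 each; CPM are counts scaled to library size with TMM factors). Foxp3, the transcription factor of regulatory T cells, was at 861 ± 127 CPM in the ILT3+ libraries, against 862 ± 233 CPM in the ILT3- libraries (SD, n = 3 each). The 7 T cell markers were all well covered, for example Cd3e with 706 ± 123 CPM in the ILT3+ libraries, against 804 ± 162 CPM in the ILT3- libraries (SD, n = 3 each).

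T cells take up amino acids through carriers that differ in substrate and mechanism. Slc7 light chains such as Slc7a5 and Slc7a6 reach the surface bound to the heavy chain CD98, the product of Slc3a2, and exchange one amino acid for another. Slc1a5 and the Slc38 carriers move glutamine and other small neutral amino acids with sodium, Slc36a1 and Slc38a9 act at lysosomes, where amino acid supply is reported to mTORC1, and Slc16 carriers such as MCT1 and MCT4 move lactate and pyruvate with protons.

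Most of the transporter genes that these cells express at appreciable levels were not called different between ILT3+ and ILT3- cells, and 2 less abundant ones were higher in ILT3+ cells, Slc6a13 among them. Of the 78 rows, 39 had enough reads for edgeR's quasi-likelihood test, and 4 had no read in any library. Of the 39, 2 passed an adjusted p of 0.05, both higher in ILT3+ cells. The one described here is Slc6a13, which encodes the GABA and taurine carrier GAT2. The 2 make up 5.13% of the tested members, against 2.31% over all 13694 tested genes, and 2 genes are too few to set that share apart from the background. Higher calls alone made up 1.96% of all genes and lower calls 0.343%. None of the members was called lower, with 1 lower at an unadjusted p below 0.05 and 0 lower in DESeq2, where 1.86% of all genes were. Counting every direction, 7 of the 39 had an unadjusted p below 0.05 (17.9%, against 13.8% of all genes).

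Another test, other reads or fewer samples gave 0 to 5 higher members and no lower one, with 0 where sample 2 or 3 of either group was left out. With the replicate number as a block 3 were higher, where 6.81% of all genes were called, 4.18% higher and 2.62% lower. DESeq2 gave 5 higher, where 6.92% of all genes were called and 5.06% were higher. Exon reads alone gave 1, where 2.05% of all genes were called, 1.79% higher and 0.251% lower. Without both samples numbered 1 there were 5, where 5.64% of all genes were called, 4.48% higher and 1.15% lower. Among those 5, Slc6a13, Slc6a12 and Slc6a8 passed the filter there through ILT3+ libraries alone, so they could enter only by being higher. Slc6a13 was among the higher members under the block, in DESeq2, on exon reads and without both samples numbered 1. In each of these fits it passed the filter through ILT3+ libraries alone, so higher was the only call open to it.

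The median log2 fold change of the 39 was 0.14, against -0.02 over all tested genes, with 22 positive and 17 negative values. In 9 of the 39 (23.1%) the CPM of ILT3+ and ILT3- libraries were fully separated, against 20.2% of all tested genes. ILT3+ was above in 7 of these (11.4% of all genes) and below in 2, Slc43a1 and Slc7a6os (8.76% of all genes). Slc6a13 and Slc7a2 passed the filter on low counts through their ILT3+ libraries alone, so they could enter the test only by being higher there.

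**Figure D1:**
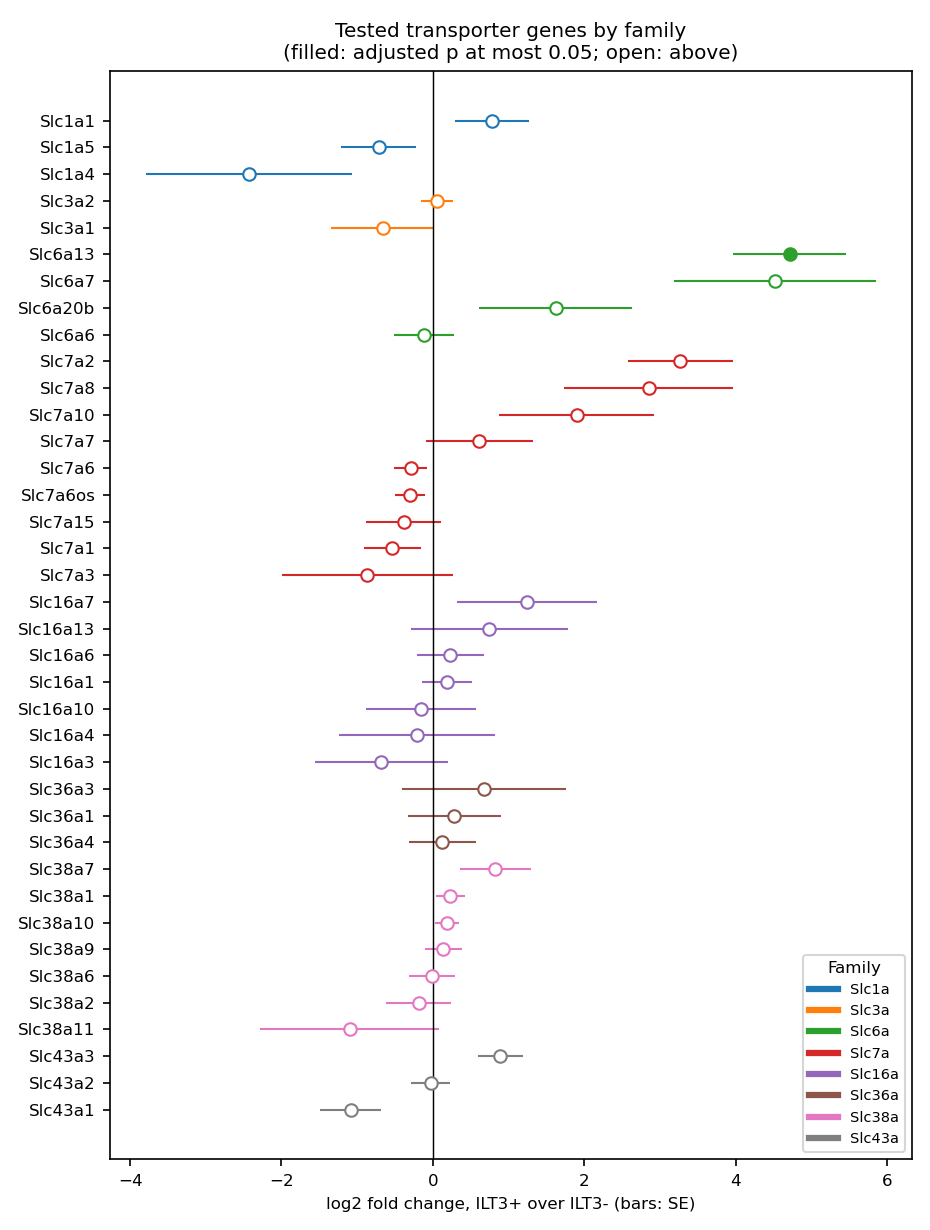
Log2 fold change of ILT3+ over ILT3- (horizontal axis) with its SE for tested members, grouped and coloured by family. The filled point, past an adjusted p of 0.05, is Slc6a13 at 4.71. Among abundant members, all open, Slc3a2 is at 0.06, Slc38a1 at 0.23, Slc7a1 at -0.53 and Slc1a5 at -0.71.

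Summed by family, the groups were compared with no test. The Slc38a rows summed to 714 ± 78.5 CPM in the ILT3+ libraries, against 669 ± 141 CPM in the ILT3- libraries, and the Slc7a rows to 310.1 ± 68.6 CPM against 384 ± 94.0 CPM (SD, n = 3 each). The Slc6a rows summed to 234 ± 98.8 CPM in the ILT3+ libraries, against 227 ± 63.4 CPM in the ILT3- libraries, and the Slc1a rows to 213 ± 129 CPM against 339 ± 118 CPM. The Slc16a rows summed to 190.1 ± 12.7 CPM in the ILT3+ libraries, against 171 ± 83.7 CPM in the ILT3- libraries, and the Slc36a rows to 38.4 ± 4.25 CPM against 32.8 ± 6.36 CPM (SD, n = 3 each). Set side by side by sample number, ILT3+ was below ILT3- in all 3 numbers for the Slc1a sums (102, 182 and 355 CPM in the ILT3+ libraries, against 354, 214 and 449.6 CPM in the ILT3- libraries) and for the Slc7a sums (231, 345 and 354 CPM in the ILT3+ libraries, against 284, 397 and 471 CPM in the ILT3- libraries). For the Slc36a sums ILT3+ was above in all 3 (33.5, 40.8 and 40.9 CPM in the ILT3+ libraries, against 26.3, 33.0 and 39.0 CPM in the ILT3- libraries). These include Slc36a3, whose reads were 87.0% intronic and 50.3% uniquely placed. It was at 3.27 CPM in ILT3+ sample 3, against 0.291 CPM in ILT3- sample 3, a wider gap than that between the sums of these samples. The Slc7a sums include Slc7a15, whose reads were all intronic (mean 71.6 CPM in ILT3+, against 93.4 CPM in ILT3- libraries). They also include Slc7a6os, which does not encode a transporter (35.4 against 43.6 CPM). No share over all genes was computed for such an order by number, so nothing is read from it.

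The 39 rows that were not tested held few reads. Of these, 4 had none and 14 had 1 to 10 over the 6 libraries. Among the others, chosen after their values were seen, Slc6a19, a neutral amino acid carrier gene, had no read in the ILT3+ libraries, against 4, 26 and 0 in the ILT3- libraries, at least 10.2-fold lower with 3 reads over all ILT3+ libraries as the floor. Most of its reads came from ILT3- sample 2, 70.0% were intronic, and its model overlaps 1 gene on the other strand. Slc6a9, a glycine carrier gene, had 0, 2 and 20 reads in the ILT3+ libraries and none in the ILT3- libraries. Nearly all of its reads thus came from ILT3+ sample 3, 36.4% were uniquely placed, and its model overlaps 3 genes on the other strand. Slc16a5 had 30 reads in the ILT3+ libraries and 45 in the ILT3- libraries, all in the samples numbered 1.

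A handful of genes held most of the reads. Slc1a5, Slc6a6, Slc38a2, Slc38a1 and Slc3a2 together took 53.7% of all reads counted for the 78 rows, and the top 10 took 79.3%. Per exon length, in RPKM (exon reads per kilobase of exon, scaled to library size with the same factors, the scale on which levels of different genes are compared here), Slc1a5 and Slc3a2 led with 59.1 and 58.1 RPKM on average over the 6 samples. Slc38a2 followed at 41.2 RPKM, Slc6a6 at 28.2 RPKM, Slc38a10 at 19.8 RPKM, Slc7a6 at 19.0 RPKM and Slc38a1 at 16.2 RPKM. The order of the leading pair is not fixed: Slc3a2 exceeded Slc1a5 in ILT3+ cells, with 59.6 ± 4.84 and 44.3 ± 31.0 RPKM, and was below it in the ILT3- libraries, with 56.5 ± 16.6 and 74.0 ± 26.7 RPKM (SD, n = 3 each), and these ranges overlap. The monocarboxylate carriers Slc16a1 and Slc16a3 averaged 9.08 and 8.05 RPKM and the sensor Slc38a9 2.56 RPKM.

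Slc6a13 had the largest fold change of the 39 tested members. Its counts were 178, 97 and 99 reads in the ILT3+ libraries, against 6, 5 and 2 reads in the ILT3- libraries. In CPM these were 16.7, 7.80 and 7.90 in the ILT3+ libraries, against 0.721, 0.393 and 0.145 in ILT3- cells. Every ILT3+ library was above every ILT3- library, and ILT3+ sample 1 was the highest. The log2 fold change was 4.71 (SE 0.74, 95% interval 2.99 to 6.44, adjusted p = 0.0216, edgeR), which is 26.2-fold. Only 4.39% of its reads were intronic and all were uniquely placed, and on exon reads alone the log2 fold change was 5.13 (adjusted p = 0.0270). The direction held in all 14 alternatives, but Slc6a13 no longer passed without ILT3+ sample 2 (adjusted p = 0.0781), ILT3+ sample 3 (0.0736), ILT3- sample 2 (0.116) or ILT3- sample 3 (0.0844). The summed erythroid markers had the same order of groups, at 204, 42.2 and 46.8 CPM in the ILT3+ libraries, against 5.29, 0.629 and 1.09 CPM in the ILT3- libraries, and ILT3+ sample 1 was again highest. Their part in the Slc6a13 result was not tested.

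The gene lies on the plus strand of chromosome 6 (GRCm38, 121300227 to 121337733), 5342 bases before Slc6a12, a neighbouring GABA and betaine carrier gene on the same strand. Slc6a12, named after its values were seen, had 0, 28 and 33 reads in the ILT3+ libraries and no read in the ILT3- libraries, at least 19.9-fold higher in ILT3+ cells taking 3 reads over all ILT3- libraries as the floor. It was too sparse for the test over 6 libraries. Without both samples numbered 1 it was called higher (adjusted p = 0.0236, edgeR). It passed the filter there through ILT3+ libraries alone, so higher was the only call open to it. Leaving out the samples numbered 1 also removed the ILT3+ library without its reads. The pair thus differed in ILT3+ sample 1, where Slc6a13 was at its highest and Slc6a12 had no reads. The promoter window of Slc6a13 is shown because this called member had mostly exonic reads (RefSeq table on GRCm38.p6, chr6:121300038-121300337, plus strand, 250 bases before to 50 after the first annotated start site). No capitals appear, since neither CACGTG, TGATGNAA nor TGANTCA was found in it on either strand.
Slc6a13: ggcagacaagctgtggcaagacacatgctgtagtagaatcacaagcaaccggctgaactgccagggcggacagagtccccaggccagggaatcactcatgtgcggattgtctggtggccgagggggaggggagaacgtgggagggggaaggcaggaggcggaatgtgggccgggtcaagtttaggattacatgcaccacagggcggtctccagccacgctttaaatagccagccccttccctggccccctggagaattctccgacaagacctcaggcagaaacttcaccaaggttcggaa

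**Figure D2:**
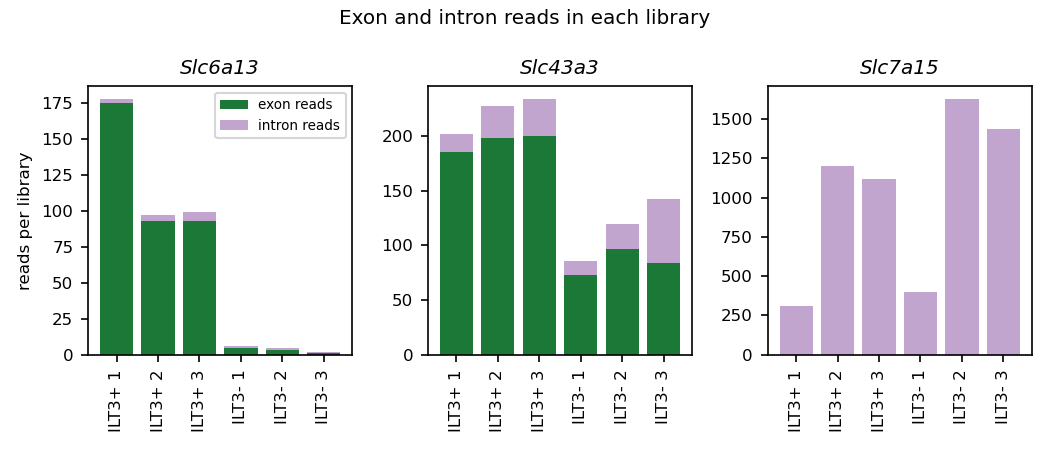
Exon reads (green) and intron reads (violet), stacked, per library for 3 genes, ILT3+ libraries left of ILT3- libraries. Slc6a13 and Slc43a3 consist mainly of exon reads, and all 6089 reads of Slc7a15 are intronic.

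Slc6a6, the taurine carrier and the most abundant gene of the family, was at 96.4, 257 and 264 CPM in the ILT3+ libraries, against 151, 274 and 243 CPM in the ILT3- libraries. The groups overlapped, and in each the sample numbered 1 was lowest. Its log2 fold change was -0.11 (SE 0.40, 95% interval -1.03 to 0.80, adjusted p = 0.946, edgeR), and its sign changed between alternatives. Slc6a7, the proline carrier gene, had 45, 169 and 68 reads in the ILT3+ libraries, against 0, 12 and 0 in the ILT3- libraries, without overlap in CPM. It was not called (log2 fold change 4.52, SE 1.33, adjusted p = 0.165), and was with the replicate number as a block (adjusted p = 0.0339) and by DESeq2 (adjusted p = 0.00444). On exon reads alone the log2 fold change was 3.62 (adjusted p = 0.290, edgeR), and 61.6% of the Slc6a7 reads were intronic. Only 1 ILT3- library was over the level of the filter, so Slc6a7 entered the test because of its ILT3+ libraries. Slc6a8, the creatine carrier gene, had 1, 20 and 35 reads in the ILT3+ libraries, against 0, 0 and 1 in the ILT3- libraries, which is 54.7 times as many after scaling (95% interval from counting error, exact, 9.43 to 2199). Both were named after their values were seen. Of the ILT3+ reads, sample 1 held 1 of 56 for Slc6a8 and 0 of 61 for Slc6a12.

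Among the CD98 heterodimers neither the heavy chain nor Slc7a6, the light chain highest in RPKM, was called. Slc3a2 was at 179, 192 and 193 CPM in the ILT3+ libraries, against 143, 165 and 234 CPM in the ILT3- libraries. The ILT3- values bracket all those of ILT3+. The log2 fold change was 0.06 (SE 0.21, 95% interval -0.44 to 0.55, adjusted p = 0.952, edgeR). Slc7a6, the light chain y+LAT2, was at 70.6, 87.4 and 102 CPM in the ILT3+ libraries, against 99.2, 89.6 and 130.1 CPM in the ILT3- libraries (log2 fold change -0.29, SE 0.22, adjusted p = 0.651). Slc7a5, the light chain LAT1 best known from activated T cells, was hardly counted: 3, 7 and 3 reads in the ILT3+ libraries, against 0, 16 and 7 reads in the ILT3- libraries. All of its 36 reads lay in exons, and its model overlaps 1 gene on the other strand, Gm20388. Whether reads of this locus were counted for that gene was not tested. With so few reads a difference was not detectable in these counts (ratio of ILT3+ over ILT3- 0.552, exact 95% counting interval 0.257 to 1.14).

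No light chain of lower abundance was called over the 6 libraries. Slc7a8, the light chain LAT2, was at 6.29, 2.49 and 0.638 CPM in the ILT3+ libraries, against 0.961, 0.314 and 0.0727 CPM in the ILT3- libraries (log2 fold change 2.85, SE 1.11, adjusted p = 0.304, edgeR). Its log2 fold change was 1.86 without ILT3+ sample 1 and 3.96 without ILT3- sample 1. Slc7a10, the light chain Asc-1 for small neutral amino acids, was at 13.5, 8.04 and 9.73 CPM in the ILT3+ libraries, against 7.21, 0.236 and 1.09 CPM in the ILT3- libraries. The groups did not overlap, but ILT3- sample 1 lay close to the ILT3+ range. Its log2 fold change was 1.90 (SE 1.02, adjusted p = 0.489), and 3.74 without both samples numbered 1 (adjusted p = 0.0321), where it was called. Of the Slc7a10 reads 76.1% were uniquely placed, and the model overlaps 1 gene on the other strand, Lrp3. Slc7a7, the light chain y+LAT1, did not follow the groups (12.9, 4.02 and 3.19 CPM in the ILT3+ libraries, against 4.69, 6.36 and 2.03 CPM in the ILT3- libraries, adjusted p = 0.800).

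The glutamine carriers Slc1a5, Slc38a1 and Slc38a2 were abundant, and none of them was called. Of these, Slc1a5 and Slc38a2 varied widely within groups. Slc1a5, which encodes ASCT2, was at 83.7, 172 and 349 CPM in the ILT3+ libraries, against 345, 207 and 441 CPM in the ILT3- libraries. In each numbered pair the ILT3+ value was below the ILT3- value, while the groups overlapped. The log2 fold change of -0.71 had an interval from -1.87 to 0.44 (SE 0.50, adjusted p = 0.619, edgeR; 0.227 with the replicate number as a block), which includes 0. Slc1a4, which encodes ASCT1 for serine and alanine, was at 0, 0.483 and 1.12 CPM in the ILT3+ libraries, against 3.24, 0.157 and 5.45 CPM in the ILT3- libraries (log2 fold change -2.43, SE 1.36, adjusted p = 0.513). Slc38a1, the carrier SNAT1, was at 235, 227 and 230.5 CPM in the ILT3+ libraries, against 157, 196 and 236 CPM in the ILT3- libraries (log2 fold change 0.23, SE 0.19, 95% interval -0.21 to 0.68, adjusted p = 0.701). Slc38a2, the carrier SNAT2, was at 99.9, 244 and 245 CPM in the ILT3+ libraries, against 117, 289 and 264 CPM in the ILT3- libraries. As with Slc6a6, the samples numbered 1 were low in both groups and the groups themselves overlapped (log2 fold change -0.19, SE 0.43, adjusted p = 0.908).

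Of the cationic amino acid carriers, which bring in arginine and lysine, edgeR called none over the 6 libraries. Slc7a1, the main one here, was at 56.9, 104 and 109 CPM in the ILT3+ libraries, against 75.6, 124 and 191 CPM in the ILT3- libraries. Each ILT3+ value was below the ILT3- value of the same number, with overlap between groups (log2 fold change -0.53, SE 0.37, 95% interval -1.40 to 0.33, adjusted p = 0.622, edgeR). Slc7a2, named after its values were seen, had 18, 30 and 16 reads in the ILT3+ libraries, against 2, 2 and 2 reads in the ILT3- libraries. Its log2 fold change of 3.27 missed the threshold (SE 0.69, adjusted p = 0.0583) and passed by DESeq2 (adjusted p = 0.0394), and 58.6% of its reads were intronic. Slc7a15 had 6089 reads in the 6 libraries, none of them in an exon and 37.3% uniquely placed.

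No carrier known from lysosomes or related to one was called. Slc38a9, the lysosomal arginine sensor of the mTORC1 pathway, was at 55.9, 50.3 and 52.0 CPM in the ILT3+ libraries, against 38.6, 63.4 and 41.4 CPM in the ILT3- libraries. The ILT3+ values fell inside the ILT3- range (log2 fold change 0.14, SE 0.24, 95% interval -0.42 to 0.70, adjusted p = 0.878, edgeR). Slc36a1, the proton-coupled carrier PAT1, was at 6.93 ± 3.07 CPM in the ILT3+ libraries, against 5.67 ± 2.88 CPM in the ILT3- libraries, and Slc36a4 was at 25.3 ± 11.4 and 23.1 ± 8.00 CPM (SD, n = 3 each). The lysosomal glutamine carrier gene Slc38a7 was at 24.9 ± 10.9 CPM in the ILT3+ libraries, against 14.0 ± 6.45 CPM in the ILT3- libraries (SD, n = 3 each, log2 fold change 0.83, SE 0.47, adjusted p = 0.517).

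Monocarboxylate carriers for lactate were likewise not called. Slc16a1, which encodes MCT1, was at 57.4, 28.5 and 54.9 CPM in the ILT3+ libraries, against 29.9, 41.6 and 52.2 CPM in the ILT3- libraries. The groups overlapped (log2 fold change 0.18, SE 0.33, 95% interval -0.58 to 0.95, adjusted p = 0.884, edgeR). Slc16a3, which encodes MCT4, the carrier associated with lactate export from glycolytic cells, was at 15.2, 58.2 and 39.8 CPM in the ILT3+ libraries, against 5.53, 64.2 and 111 CPM in the ILT3- libraries. Its spread within groups was wider than the distance between them, and the interval of the log2 fold change ran from -2.71 to 1.35. Slc16a6, which encodes MCT7, was at 27.4, 35.6 and 44.9 CPM in the ILT3+ libraries, against 12.4, 40.9 and 38.4 CPM in the ILT3- libraries (adjusted p = 0.889).

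The 3 members of the Slc43a family differed in direction, and none was called. Slc43a3, a purine nucleobase carrier gene, was at 19.0, 18.3 and 18.7 CPM in the ILT3+ libraries, against 10.3, 9.43 and 10.3 CPM in the ILT3- libraries. The groups were tight and well separated, at a ratio of 1.86, but the test over all genes did not call it (log2 fold change 0.89, SE 0.30, 95% interval 0.20 to 1.59, adjusted p = 0.228, edgeR), whereas DESeq2 did (adjusted p = 0.0329). Slc43a1, the large neutral amino acid carrier LAT3, was lower in each ILT3+ library, at 6.85, 7.56 and 6.46 CPM against 20.9, 10.7 and 12.8 CPM in the ILT3- libraries, and was not called either (log2 fold change -1.08, SE 0.40, adjusted p = 0.276). Slc43a2, the carrier LAT4, was at 72.2, 53.9 and 49.7 CPM in the ILT3+ libraries, against 76.8, 57.9 and 45.0 CPM in the ILT3- libraries (adjusted p = 0.981).

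**Figure D3:**
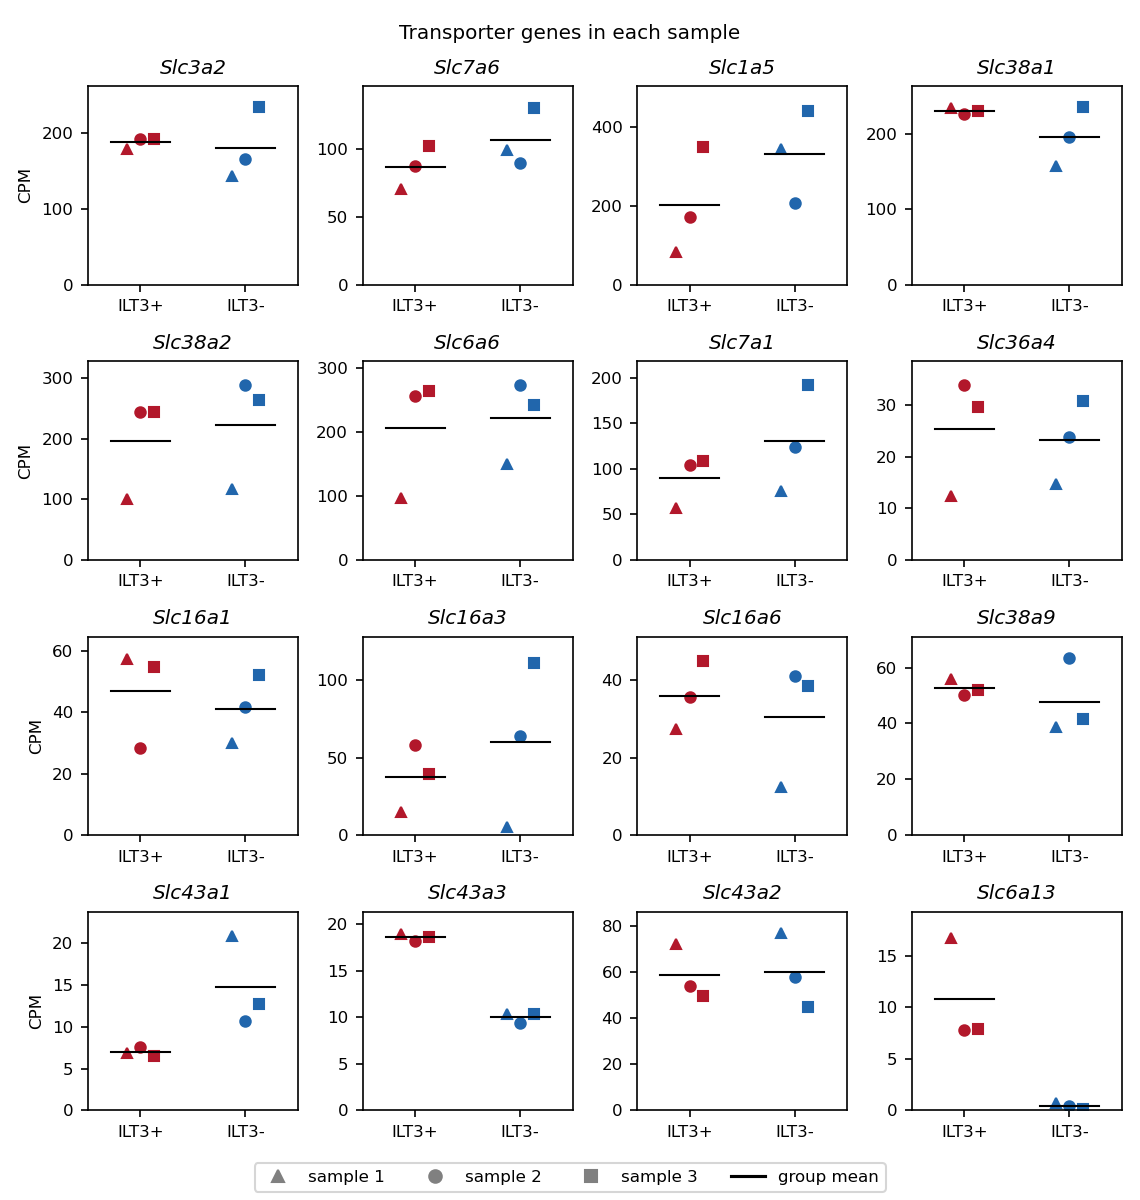
CPM (vertical axis, from 0) of 16 members in ILT3+ (red, left) and ILT3- samples (blue, right), with a bar at the group mean and the marker shape giving the sample number. Slc6a13, Slc43a3 and Slc43a1 do not overlap between groups, while in Slc38a2, Slc6a6, Slc7a1, Slc36a4, Slc16a3 and Slc16a6 both samples numbered 1 (triangles) lie below the other 4.

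Several abundant carriers were lowest in both samples numbered 1. Among the 39 tested members, both samples numbered 1 lay below the other 4 in 8, namely Slc38a2, Slc6a6, Slc7a1, Slc36a4, Slc16a3, Slc16a6, Slc38a11 and Slc7a15, and above them in 3. These 11 (28.2%) compare with 30.6% of all tested genes, a share near the background, so nothing about the transporter genes is read from it. Mitochondrial ribosomal RNA took 2.27% and 2.96% of reads in ILT3+ and ILT3- sample 1 and 1.13% to 1.66% in the other 4, and its part in these levels was not tested. Summed over the 78 rows, the members were at 1576, 2095 and 2256 CPM in the ILT3+ libraries, against 1661, 2113 and 2506 CPM in the ILT3- libraries. The sum was lowest in the sample numbered 1 of both groups. The groups overlapped, and within each number ILT3+ was the lower.

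The promoter windows of Slc7a1 and Slc38a2 are given because these genes shared that pattern (RefSeq table on GRCm38.p6, minus strand, chr5:148399855-148400154 and chr15:96699679-96699978). Capitals mark a match to TGANTCA, the AP-1 site, found in the Slc7a1 window and in 7.81% of all 32851 windows of this length. They are followed by those of Slc7a11, the cystine carrier gene, and Slc1a4 (minus strand, chr3:50443564-50443863 and chr11:20332664-20332963), shown for TGATGNAA in capitals, the core of the element through which ATF4 acts when amino acids are scarce.
Slc7a1: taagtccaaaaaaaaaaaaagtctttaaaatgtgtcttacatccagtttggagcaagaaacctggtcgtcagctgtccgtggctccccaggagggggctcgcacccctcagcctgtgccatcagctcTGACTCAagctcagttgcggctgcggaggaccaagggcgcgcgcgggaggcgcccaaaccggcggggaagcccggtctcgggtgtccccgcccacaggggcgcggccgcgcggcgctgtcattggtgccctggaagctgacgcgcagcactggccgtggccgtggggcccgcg
Slc38a2: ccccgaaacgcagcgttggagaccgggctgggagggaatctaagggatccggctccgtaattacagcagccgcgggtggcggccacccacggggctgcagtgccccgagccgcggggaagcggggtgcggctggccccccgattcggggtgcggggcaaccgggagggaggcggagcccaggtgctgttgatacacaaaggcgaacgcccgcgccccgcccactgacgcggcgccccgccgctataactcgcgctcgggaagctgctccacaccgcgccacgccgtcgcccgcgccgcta
Slc7a11: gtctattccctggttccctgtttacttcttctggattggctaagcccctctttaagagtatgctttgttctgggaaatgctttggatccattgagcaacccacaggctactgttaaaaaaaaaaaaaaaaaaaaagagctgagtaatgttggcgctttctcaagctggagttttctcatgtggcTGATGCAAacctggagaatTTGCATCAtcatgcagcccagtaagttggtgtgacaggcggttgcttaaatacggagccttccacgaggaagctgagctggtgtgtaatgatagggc
Slc1a4: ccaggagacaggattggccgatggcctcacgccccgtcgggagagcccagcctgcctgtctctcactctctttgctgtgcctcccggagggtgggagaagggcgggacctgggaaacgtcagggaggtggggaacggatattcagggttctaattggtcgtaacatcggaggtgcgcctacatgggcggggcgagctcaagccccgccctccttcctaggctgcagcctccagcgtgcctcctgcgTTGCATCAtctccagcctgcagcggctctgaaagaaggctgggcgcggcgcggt

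Both strands were searched, and overlapping matches were allowed. Windows were found by symbol for 53 of the 78 rows, 74 windows in all. TGATGNAA was in 4 of these (5.41%), against 3.97% of all windows. The Slc7a11 window and a Slc7a7 window each held it in 2 copies. Windows of the same gene can overlap, and another Slc7a7 window among the 4 shares a site with that Slc7a7 window. The E-box CACGTG, bound by MYC among other factors, was in 10 of the 74 windows (13.5%), against 7.15% of all windows, and TGANTCA in 9 of 74 (12.2%). These are descriptions of sequence only. In the counts, Slc7a11 was close to silent, with 2, 1 and 0 reads in the ILT3+ libraries, against 3, 1 and 1 in the ILT3- libraries, and Slc1a4 was low as given above.

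Some members were highest in ILT3+ sample 1, and so were macrophage genes. Those in the next 2 sentences that are not known T cell carriers, and Slc7a10 and Slc38a7, were named after their values were seen. Slc1a3, a glutamate carrier gene, had 9.57 CPM in ILT3+ sample 1 and 0.145 to 0.841 CPM in the other 5 samples. Slc7a7 at 12.9 CPM, Slc7a8 at 6.29 CPM and Slc16a9 at 3.94 CPM also had their highest value there, as did Slc16a10, the aromatic amino acid carrier gene TAT1, at 24.5 CPM, although ILT3- sample 3 was close at 23.7 CPM. Of the Slc16a10 reads 94.5% were intronic. On exon reads it was at 0.226 RPKM in ILT3+ sample 1, hardly above the 0.223 RPKM of ILT3- sample 1. The 13 macrophage and monocyte markers summed to 847, 35.1 and 36.5 CPM in the ILT3+ libraries, against 30.2, 23.6 and 15.2 CPM in the ILT3- libraries. Csf1r, the receptor that defines the lineage, had 2833, 28 and 5 reads in the ILT3+ and 27, 8 and 3 reads in the ILT3- libraries. Of these markers 8 were tested and edgeR called none, 4 having an unadjusted p below 0.05. With a replicate block 3 were higher, where 4.18% of all genes were. DESeq2 called 0 and gave no adjusted p for Csf1r. C1qa had 825, 8 and 4 reads in the ILT3+ libraries, against 22, 0 and 0 in the ILT3- libraries, and the part of such cells in the transporter values was not tested. For Slc6a13 the call held without ILT3+ sample 1 (log2 fold change 4.26, adjusted p = 0.0465).

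**Figure D4:**
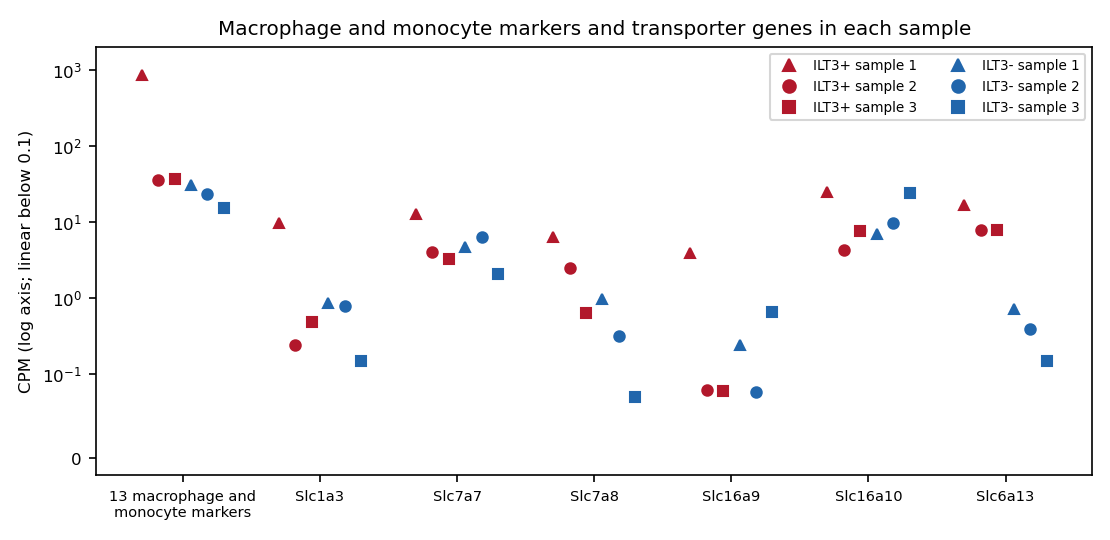
CPM on a log axis (linear below 0.1) of the summed macrophage and monocyte markers and of 6 members in each sample, ILT3+ in red left of ILT3- in blue. The marker sum and Slc1a3 stand out in ILT3+ sample 1, whereas Slc6a13 is above the ILT3- samples in all 3 ILT3+ samples.

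Markers of other cells were also uneven. The 8 erythroid genes, whose sums are given beside Slc6a13, were higher in sum in every ILT3+ library than in any ILT3- library, with 2 of 4 tested called higher by edgeR. All 4 had an unadjusted p below 0.05, and all 4 were called higher by DESeq2 and with the replicate block. Over all tested genes the shares called higher were 1.96% by edgeR, 5.06% by DESeq2 and 4.18% with the block. In ILT3- sample 2 all 8 erythroid genes together reached 0.629 CPM, too little for any of them to meet the filter there. The 4 could thus enter the test only with the help of ILT3+ libraries, which favours higher calls. The B cell genes found summed to 34.1 to 72.4 CPM in the ILT3+ libraries, against 21.2 to 36.3 CPM in ILT3- libraries, where edgeR and DESeq2 each called 0 of 5, and 1 had an unadjusted p below 0.05. The dendritic cell list, which includes Ccr7, a gene T cells also express, summed to 297 to 729 CPM in the ILT3+ libraries, against 372 to 2119 CPM in ILT3- libraries. Of its 6 tested genes edgeR called 2 higher and 0 lower (1.96% and 0.343% of all genes), and 4 had an unadjusted p below 0.05. DESeq2 called 2. With the replicate block 3 were higher and 1 was lower (4.18% and 2.62% of all genes). None of these sums was tested for its part in the transporter values.

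Genes that work with the carriers were mostly not called either. In the mTORC1 amino acid sensing list none of 37 tested genes passed in edgeR (2 had an unadjusted p below 0.05 and DESeq2 called 1), with a median log2 fold change of -0.08. Those 2 were sestrin genes, whose products restrain mTORC1, and are named after their values were seen: Sesn3 was at 51.4 ± 11.2 CPM in the ILT3+ libraries, against 92.5 ± 11.8 CPM in the ILT3- libraries, and Sesn1 at 163 ± 18.7 and 230.4 ± 28.8 CPM (SD, n = 3 each, adjusted p = 0.117 and 0.262). In the ATF4 and amino acid response list 1 of 25 tested genes was higher and none lower by edgeR (2 had an unadjusted p below 0.05 and DESeq2 called 2), with a median of 0.07. The one was Nupr1, a stress-induced nuclear protein gene, at 6.94, 23.5 and 18.3 CPM in the ILT3+ libraries, against 0.961, 0.393 and 0.727 CPM in the ILT3- libraries (log2 fold change 4.55, SE 0.67, adjusted p = 0.0167, edgeR). It lost the call without ILT3+ sample 2 (adjusted p = 0.0838), ILT3+ sample 3 (0.0754), ILT3- sample 2 (0.0836) or ILT3- sample 3 (0.0927). Asns, asparagine synthetase and an ATF4 target, named after its values were seen, did not overlap between groups at 7.32, 14.7 and 22.6 CPM in the ILT3+ libraries, against 3.24, 4.09 and 5.67 CPM in the ILT3- libraries, but was not called by edgeR (log2 fold change 1.77, adjusted p = 0.163; 0.0168 by DESeq2). Atf4 itself was at 130.2 ± 22.9 CPM in the ILT3+ libraries, against 160.4 ± 20.3 CPM in the ILT3- libraries (SD, n = 3 each, adjusted p = 0.592).

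Of 29 tested enzymes of glutamine and other amino acids none was called by edgeR (1 had an unadjusted p below 0.05, DESeq2 called 1, median -0.05). Of 15 tested genes of polyamine, arginine and tryptophan metabolism, the receptor Ahr included, edgeR called none (4 had an unadjusted p below 0.05, DESeq2 called 1, median -0.02). Ahr, a sensor of tryptophan-derived ligands among others, was at 56.2, 31.8 and 36.9 CPM in the ILT3+ libraries, against 18.3, 11.1 and 4.14 CPM in the ILT3- libraries and passed by the fit with a replicate block (adjusted p = 0.0286) but not without it (0.132). In lactate and pyruvate handling 0 of 15 were called by edgeR (2 had an unadjusted p below 0.05, DESeq2 called 1, median 0.16). Bsg, the chaperone that takes MCT1 and MCT4 to the surface, was at 175 ± 24.9 CPM in the ILT3+ libraries, against 149 ± 32.5 CPM in the ILT3- libraries, and Emb, the chaperone of MCT2, at 405 ± 105 and 266 ± 81.8 CPM (SD, n = 3 each). With a replicate block Emb and Pkm, a pyruvate kinase gene, were called higher (adjusted p = 0.0348 and 0.0286). Ahr, Bsg, Emb and Pkm were named after their values were seen. Among 22 tested regulators of transporter genes 2 were higher and none lower by edgeR, where 2.31% of all genes were called (5 had an unadjusted p below 0.05, DESeq2 called 3, median -0.06). Nedd4, a ubiquitin ligase gene, rose to 64.5 ± 10.1 CPM in the ILT3+ libraries, against 8.85 ± 2.86 CPM in the ILT3- libraries (SD, n = 3 each, log2 fold change 2.86, SE 0.31, adjusted p = 0.00760, edgeR), and lost the call without ILT3- sample 3 (adjusted p = 0.0553). The other was Prdm1, a transcriptional repressor gene, at 97.0 ± 8.02 CPM in the ILT3+ libraries, against 7.81 ± 0.836 CPM in the ILT3- libraries (SD, n = 3 each, log2 fold change 3.64, adjusted p = 0.000435). With a block, where 6.81% of all genes were called, Bach2 and Foxo1 were also called, both lower. Myc, the activator of amino acid carrier genes in activated T cells, was at 69.3 ± 22.6 CPM in the ILT3+ libraries, against 75.0 ± 21.5 CPM in the ILT3- libraries (SD, n = 3 each, adjusted p = 0.927).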

How the data were processed

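Per the labels' protocols, SmartSeq V2 turned 1 ng of RNA (integrity above 8) into full-length cDNA for Nextera XT libraries. For every sample the authors deposited read counts of each gene, split into exon and intron reads, per the file headers. The submitters' processing notes name the build GRCm38. How reads were aligned and counted, and whether strand was used, is not given in the sources used here, so overlapping and antisense genes can share reads. Exon lengths are those deposited by the authors.

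Total gene reads, which include introns and reads also placed elsewhere, went into edgeR 4.0.16 (R 4.3.3): libraries were scaled by TMM, genes were filtered with filterByExpr (count 10 and total 15), and a robust quasi-likelihood model had the group as its sole term. Benjamini-Hochberg adjustment at 0.05 ran over all 13694 tested genes. SE is the log2 fold change over the root of F, and 95% intervals use the fit's degrees of freedom. The test was checked on simulated counts. Depth puts 3 reads at 0.220 to 0.321 CPM, and counting intervals cover counting error only, since reads carry no molecular identifiers. Alternatives were exon or unique reads, DESeq2 1.42.0 (test or size factors), limma 3.58.1 voom, no filter, a replicate block, and libraries left out.

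Replicate numbers occur in both groups. Same-numbered samples deviated together from their group means (correlations 0.529, 0.394 and 0.405). Samples of unlike number had correlations from -0.431 to 0.249. Deviations within a group depend on one another, so this check points to pairing by number without settling it. The labels do not say whether the numbers pair the samples. The reported fit has no term for the number, so its p-values ignore any such pairing, and the fit with a replicate block is an alternative.

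The members, lists and alternatives were chosen with earlier results of these data known. The genes named were members called, members called with the block at 10 CPM or more, the member highest in RPKM per family, 21 known T cell carriers, and called genes of each pathway list (up to 4). That gave 23 members, 21 of them tested. A few more are said to have been named after their values were seen. Results of a called member and of a marker gene are not reported here.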

Additional observations from a re-analysis of the deposited data

How the results depend on the processing

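Over all genes 316 were called, 948 by DESeq2, 932 with the replicate block, 786 without both samples numbered 1, and 31 to 322 with 1 library left out (53 when ILT3+ sample 2 was dropped, 57 for ILT3+ sample 3, 67 for ILT3- sample 2 and 31 for ILT3- sample 3). Members called higher were 2 in the analysis as reported, 1 on exon reads, 5 by DESeq2, 5 without both samples numbered 1, and 0 to 2 with 1 library left out (1 without ILT3+ sample 1, and 0 without sample 2 or 3 of either group). The block called 3, adding Slc6a7 (adjusted p = 0.0339), and changed the call of no other transporter gene. Members called lower were 0 in each alternative run. Among the recomputed fold changes of named genes, 290 kept direction and side of the threshold, 15 lost the call, 1 gained it and 26 changed sign, all of the last in genes that were not called.

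Given as log2 fold changes, signs changed as follows. With 1 library left out, Slc3a2 ran from -0.088 to 0.29, Slc38a2 from -0.50 to 0.13, Slc6a6 from -0.33 to 0.23, Slc16a1 from -0.0019 to 0.45, Slc36a4 from -0.13 to 0.45, Slc43a2 from -0.21 to 0.19, Slc7a7 from -0.27 to 1.00, Slc16a3 from -1.22 to 0.11, Slc16a6 from -0.14 to 0.51 and Slc36a1 from -0.077 to 0.62. Others kept their sign but moved by over 1.5 times: Slc7a8 ran from 1.86 to 3.96, Slc1a4 from -3.51 to -1.60 and Slc1a5 from -1.36 to -0.34. The same held for Slc7a1 (-0.81 to -0.14), Slc7a6 (-0.42 to -0.12), Slc43a1 (-1.26 to -0.76), Slc38a1 (0.094 to 0.39) and Slc38a9 (0.0068 to 0.41). Without both samples numbered 1, Slc3a2 was -0.025, Slc6a6 0.041, Slc16a1 -0.14, Slc43a2 0.038, Slc38a9 -0.0063, Slc7a7 -0.19 and Slc36a1 -0.31. On exon reads Slc6a6 was 0.059 and Slc43a2 0.13, and Slc43a2 was 0.011 without a filter and 0.0090 with voom. The cause was not tested.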
